A study of Mus musculus with 16 samples.

Results

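The genes described here make, take up, sense and export cholesterol. They are 29 of the 54532 genes in the count table, picked by symbol for their known roles, with earlier results of these data known. Of these, 7 act in the mevalonate arm that builds isoprenoid precursors from acetyl-CoA, 11 turn the product into sterols, 5 control the SREBP transcription factors, 3 serve sterol uptake and transport, and 3 belong to efflux and its regulation by the liver X receptors (LXR). All 29 passed the filter on low counts in every comparison.

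RNA came from CD8+ T cells of C57BL/6J mouse spleens, isolated while naive and activated again and again in culture over 4 days with beads carrying antibodies to CD3 and CD28, in IL-2 (85 U/ml), so that they kept TCF1, a transcription factor of stem-like T cells. All groups therefore hold cultured, antigen-experienced cells of a single genotype and not T cells taken from a tumour. The cells spent 1 h with or without prostaglandin E2 (PGE2, 100 ng/ml), a lipid mediator that raises cyclic AMP through its EP2 and EP4 receptors. They then spent 4 h in the same dose of IL-2 alone ("unstimulated") or in IL-2 with fresh beads at 1 bead per cell ("stimulated"). The 4 groups were unstimulated untreated, unstimulated with PGE2, stimulated untreated and stimulated with PGE2 cells, with 4 numbered replicates each. The sources used here do not say whether the replicates came from separate mice or cultures, so p-values measure only the spread between these samples. The design asks whether PGE2 changed these genes in resting and in restimulated cells, whether it did so differently in the 2 states, and how restimulation itself changed them.

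Animal cells make cholesterol from acetyl-CoA in a chain of enzymes, most of them encoded by targets of SREBP2, a membrane-bound transcription factor. When sterols are scarce, the escort protein SCAP carries SREBP to the Golgi for cleavage, and when sterols are plentiful, INSIG proteins hold SCAP in the endoplasmic reticulum. Oxidized sterols instead activate LXR, which raises the efflux transporters Abca1 and Abcg1 and the ubiquitin ligase Mylip, which degrades lipoprotein receptors. T cells that begin to divide are known to raise SREBP target genes and to lower LXR targets as they build new membrane.

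The summed count of a library lay between 22678254 and 42950763, with a median of 30211840.5. The 6 T cell markers were present throughout, summing to 2662 to 4592 CPM per library (counts scaled with TMM factors to a common library total). Among them Cd8a stood between 667 and 1209 CPM, with means of 987 CPM untreated and 719 CPM with PGE2 in unstimulated cells and of 1151 and 855 CPM in stimulated cells. Tcf7, which encodes TCF1, was lower after stimulation (289 to 469 CPM) than before (913 to 1539.8 CPM). The 8 activation genes used to check the bead labels were all higher with beads, with and without PGE2. The B cell markers summed to 10.1 to 21.01 CPM in unstimulated and 4.47 to 11.7 CPM in stimulated libraries, most of it Cd79b. The CD4+ T cell markers summed to 26.9 to 40.1 and 14.5 to 26.6 CPM, mostly Zbtb7b, while Cd4 itself stayed at or below 1.87 CPM and Foxp3 at or below 9.07 CPM. Myeloid markers summed to at most 7.05 CPM, most of it Cd68, with Lyz2 at or below 0.0551 CPM. The NK cell and erythroid markers were at or below 0.423 CPM, with Ncr1, Klra8 and Hbb-bs at 0 in every library. The part that the B cell and CD4+ T cell transcripts, or the lower Cd8a with PGE2, play in the differences below was not tested. In bulk RNA, fewer cells that express a gene and less of its RNA per cell cannot be told apart.

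Levels can be compared between genes only per length, for which the deposited FPKM values (fragment counts scaled by gene length and by library total) were used. Averaged over the 4 groups, Srebf2, which encodes SREBP2, was highest at 38.2 FPKM, followed by Nr1h2, which encodes LXRβ, at 33.4 and Srebf1, which encodes SREBP1, at 27.8 FPKM. Among enzymes Cyp51, the lanosterol demethylase, was highest at 19.8 FPKM, with Ebp, a sterol isomerase, close behind at 19.4 FPKM. Lss, the lanosterol synthase that closes the sterol rings, lay lower at 2.50 FPKM. Only Tm7sf2, a sterol reductase (0.939 FPKM), the efflux pump Abca1 (0.696 FPKM) and Fdps, the farnesyl diphosphate synthase (0.365 FPKM), were below 1 FPKM. In 13 genes the mean was highest in stimulated untreated and lowest in unstimulated cells with PGE2, among them Hmgcs1, Idi1, Sqle, Lss, Cyp51 and Msmo1. In 8 genes it was the reverse, highest in unstimulated cells with PGE2 and lowest in stimulated untreated cells, among them Abca1, Abcg1, Mylip and Npc1.

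**Figure D1:**
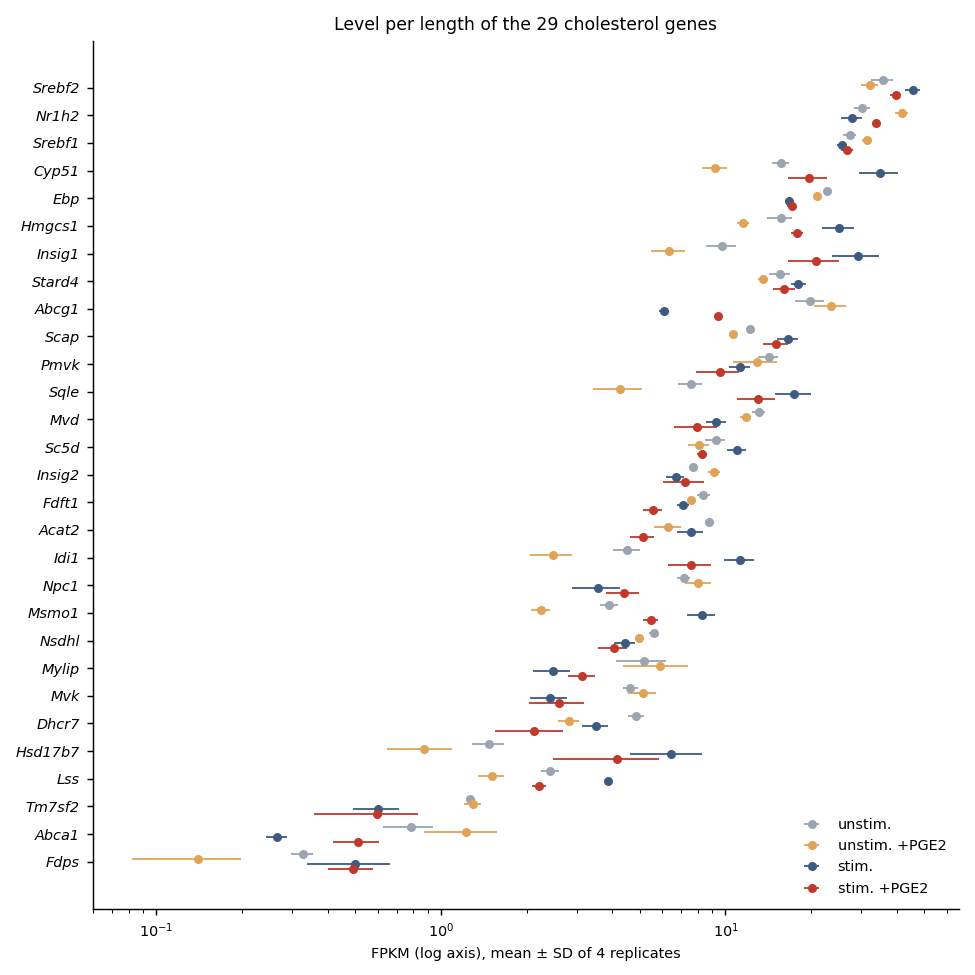
Level per length of the 29 genes (FPKM, log axis), mean ± SD of 4 replicates in each of the 4 groups, ordered by the mean over groups. Srebf2 (38.2 FPKM), Nr1h2 (33.4 FPKM) and Srebf1 (27.8 FPKM) lie at the top, and Fdps (0.365 FPKM) at the bottom.

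Promoter windows were available for 23 of the 29 genes, each reaching from 250 bases before to 50 bases after a RefSeq start in GRCm38.p6. Fdps, Abcg1, Sqle, Npc1, Fdft1 and Stard4 had no window in the table used. SREBP binds the sterol regulatory element (SRE, searched as TCACNCCAC on both strands, with the shorter core CACNCCAC, which every SRE match contains), usually beside NF-Y, which binds CCAAT, or Sp1, which binds GGGCGG. An NF-Y box was in 18 of the 23 windows (78.3%), against 39.4% of the 9393 tested genes with a window. The Sp1 box was in 19 (82.6%, against 65.0%), and the SRE core in 3, Acat2, Hmgcs1 and Insig1 (13.0%, against 6.00%). The longer SRE was in Hmgcs1 alone (4.35%, against 1.02%). An E-box (CACGTG) was in 5 windows (21.7%, against 10.5%). The CREB site TGACGTCA (0%, against 3.41%) and the LXR element known as DR4 (0%, against 0%) were in none. These shares describe the letters in the windows and were not tested, and a match is not a measured binding site. DR4 was searched only as an exact repeat, which none of the 9393 tested genes with a window held. Its absence therefore does not show that Abca1 or any other gene here lacks an LXR element. Elements that differ from the exact repeat were not searched.

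The 200 bases before the start are shown in lower case for 5 genes, with the SRE core and NF-Y boxes of either strand in capitals (CCAAT reads ATTGG on the other strand). Hmgcs1 (chr13:119690151-119690350, plus strand), Lss (chr10:76531405-76531604, plus strand) and Sc5d (chr9:42264301-42264500, minus strand) are shown because their counts were lower with PGE2, though Sc5d passed the test in stimulated cells only. Mvk (chr5:114444069-114444268, plus strand) is shown because it holds more NF-Y boxes than any of these and passed the test in neither PGE2 comparison, and Abca1 (chr4:53159896-53160095, minus strand) because it was higher with PGE2 and holds neither motif.
Hmgcs1: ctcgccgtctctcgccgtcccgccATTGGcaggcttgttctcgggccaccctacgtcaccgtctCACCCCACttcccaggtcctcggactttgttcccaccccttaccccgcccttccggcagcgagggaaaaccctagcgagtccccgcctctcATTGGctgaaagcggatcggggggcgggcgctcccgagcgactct
Lss: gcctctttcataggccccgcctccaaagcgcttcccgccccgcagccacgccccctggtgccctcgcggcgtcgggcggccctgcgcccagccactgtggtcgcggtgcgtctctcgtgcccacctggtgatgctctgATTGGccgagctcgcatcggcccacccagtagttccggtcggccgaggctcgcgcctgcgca
Sc5d: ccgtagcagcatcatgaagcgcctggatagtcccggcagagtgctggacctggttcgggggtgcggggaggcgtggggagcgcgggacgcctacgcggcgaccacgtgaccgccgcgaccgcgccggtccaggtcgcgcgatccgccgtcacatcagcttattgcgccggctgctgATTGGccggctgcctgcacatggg
Mvk: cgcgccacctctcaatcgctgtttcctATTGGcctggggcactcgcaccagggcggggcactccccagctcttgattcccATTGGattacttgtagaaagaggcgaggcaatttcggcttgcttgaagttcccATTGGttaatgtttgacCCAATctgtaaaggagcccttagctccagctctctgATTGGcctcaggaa
Abca1: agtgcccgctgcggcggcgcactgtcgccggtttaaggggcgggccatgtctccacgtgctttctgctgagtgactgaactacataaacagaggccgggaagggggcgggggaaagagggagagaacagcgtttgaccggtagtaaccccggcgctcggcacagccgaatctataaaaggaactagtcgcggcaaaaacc

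**Figure D2:**
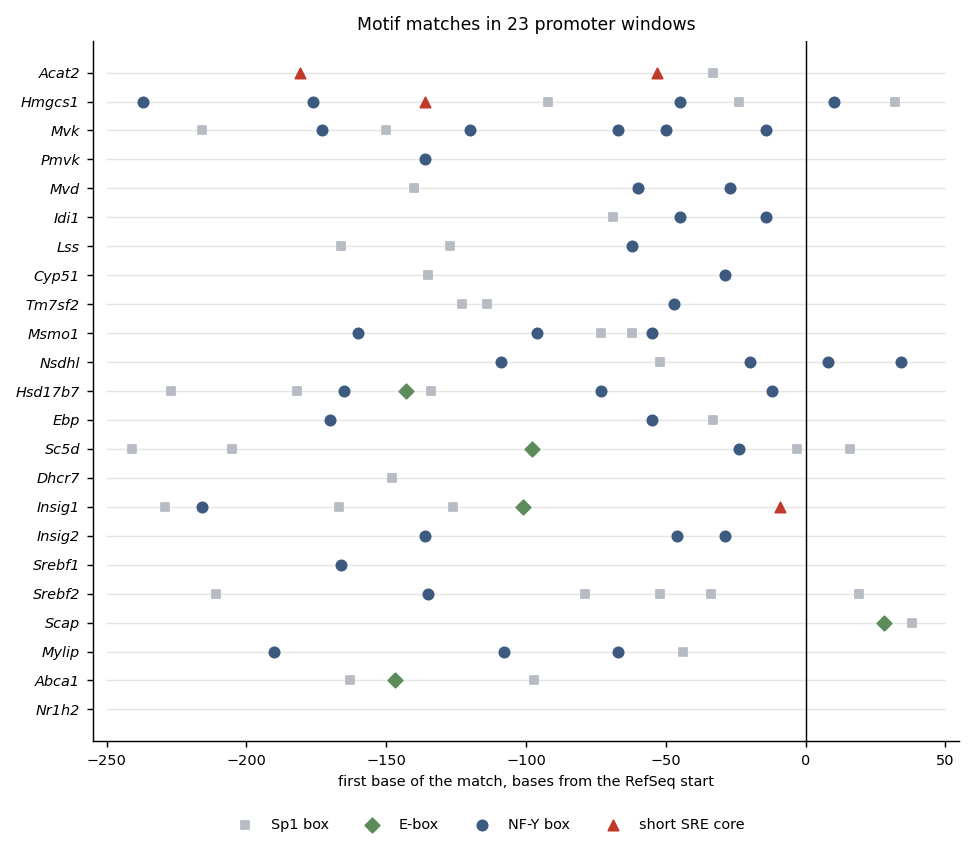
Matches to 4 motifs in the 23 promoter windows, by distance in bases from the RefSeq start (vertical line), on either strand. NF-Y boxes (circles) lie in 18 windows, the SRE core (triangles) in 3, and the windows of Dhcr7, Abca1, Acat2, Scap and Nr1h2 hold no NF-Y box.

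With PGE2 many cholesterol synthesis genes had lower counts and Abca1 and Nr1h2 had higher ones, in stimulated and in unstimulated cells. Across both states, 8 synthesis genes fell in each (Acat2, Hmgcs1, Idi1, Sqle, Lss, Cyp51, Msmo1 and Dhcr7), and Abca1 and Nr1h2 rose in each. The rises were few, and their number lay near the share of all genes that rose, given below. The changes were modest, at most 1.77-fold lower (Cyp51) in stimulated cells and 1.84-fold lower (Idi1) in unstimulated cells, leaving aside Fdps, whose counts were low. The largest rises were those of Abca1, 1.92-fold in stimulated and 1.54-fold in unstimulated cells. A gene was taken to have changed at an adjusted p below 0.05 in edgeR's quasi-likelihood test with Benjamini-Hochberg adjustment over all genes tested, and called a DEG if it also changed at least 2-fold.

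In stimulated cells 10 of the 29 genes were lower and 3 higher with PGE2, where 3.8% and 6.04% of the 13922 genes tested were lower and higher. None reached 2-fold and so none was a DEG, against 1.75% of all genes. DESeq2 likewise called no DEG, and Abca1 alone became one in the fits without stimulated untreated replicate 2 (log2 fold change 1.009) or without replicate 4 with PGE2 (1.06). In unstimulated cells 13 were lower and 4 higher (15.5% and 12.9% of 14505 genes), and 1 was a DEG (3.38%). In both states 8 were lower and 2 higher, against 2.65% and 4.47% of the 13571 genes tested in both. The median log2 fold change of the 29 genes was −0.18 in stimulated and −0.17 in unstimulated cells, where all genes tested had medians of −0.0061 and −0.0010. The 4 replicates with PGE2 all lay below the 4 untreated ones for 11 genes and all above for 4 in stimulated cells (8.32% and 9.58% of all genes), and for 16 and 3 genes in unstimulated cells (16.8% and 12.1%). The counts of higher genes and of DEGs in this paragraph lay near the shares of all genes. They therefore say little of these 29 as a set.

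Because samples with the same replicate number deviated together, the comparison was also made within numbers. Samples numbered 1 and 2 also deviated together in stimulated cells, and no source says what a number marks. The pairing is thus only a hint from the data. It then called 22 genes in stimulated cells (17 lower, 5 higher), where 20.7% and 19.1% of all genes were called lower and higher in the same fit. In unstimulated cells it called 26 (19 lower, 7 higher), against 24.2% and 23.6% of all genes. In both states the counts of higher genes lay near the shares of all genes. The unpaired count for stimulated cells fell from 13 to 8 without stimulated untreated replicate 1, and likewise to 8 without stimulated replicate 3 with PGE2.

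**Figure D3:**
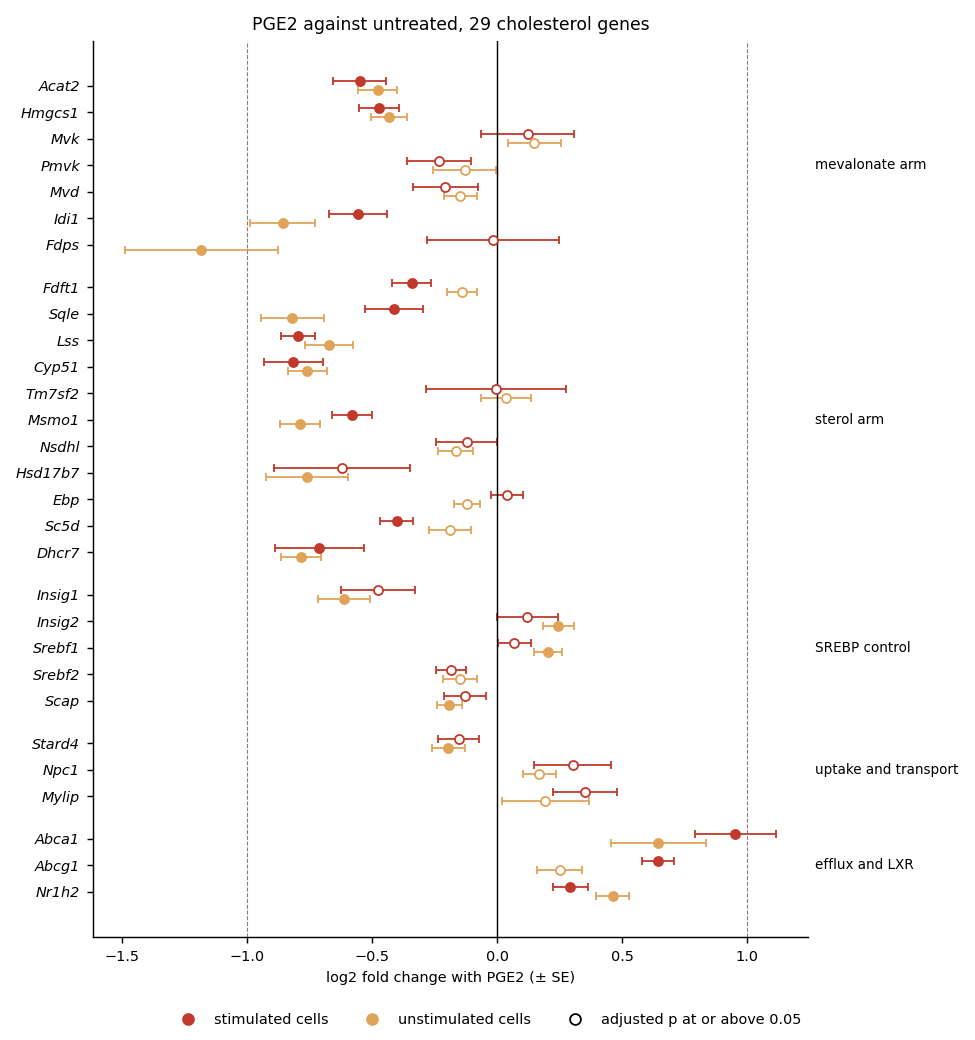
Log2 fold change with PGE2 (± SE) of each gene in stimulated and in unstimulated cells, grouped by role. Filled points passed the adjusted p of 0.05, open points did not, and dashed lines mark a 2-fold change. Points of the mevalonate and sterol arms lie mostly left of 0, and those of Abca1, Abcg1 and Nr1h2 right of it.

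In the mevalonate arm the first enzymes and the isomerase moved while the kinases did not pass the test. Median log2 fold changes over the 7 genes were −0.23 in stimulated and −0.43 in unstimulated cells. In these states 3 and 4 genes were lower, against 3.8% and 15.5% of all genes. None was higher, against 6.04% and 12.9%. Hmgcs1, the synthase that forms 3-hydroxy-3-methylglutaryl-CoA and the holder of the SRE shown above, stood at 141, 114, 111 and 117 CPM in replicates 1 to 4 of stimulated untreated cells and at 84.9, 83.4, 84.9 and 93.2 CPM with PGE2. Without beads it stood at 78.7, 77.7, 64.5 and 80.7 CPM untreated and at 58.1, 53.0, 52.5 and 56.7 CPM with PGE2. Every replicate with PGE2 was thus below every untreated replicate of its state, with 71.6% and 73.0% of the untreated mean left. The log2 fold changes were −0.47 ± 0.08 (SE, n = 4 per group, edgeR adjusted p = 0.00599) and −0.43 ± 0.071 (edgeR adjusted p = 0.000916).

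Idi1, which isomerizes isopentenyl diphosphate, stood at 47.7, 39.6, 39.2 and 38.9 CPM in stimulated untreated cells and at 33.7, 28.8, 25.4 and 23.8 CPM with PGE2. Unstimulated cells held 16.2, 17.6, 14.3 and 18.4 CPM untreated and 8.33, 8.81, 7.66 and 11.3 CPM with PGE2. The groups did not overlap in either state, and 54.2% of the untreated mean was left in unstimulated cells, the lowest share among the synthesis genes other than Fdps. Its log2 fold change was −0.56 ± 0.11 in stimulated cells (edgeR adjusted p = 0.0149) and −0.86 ± 0.13 in unstimulated cells (edgeR adjusted p = 0.000548). The call in stimulated cells was lost without untreated replicate 1 (edgeR adjusted p = 0.0505) and without replicate 3 with PGE2 (0.056). A share of 21.9% of the 100-base windows of Idi1 exons also occurs in other genes, mostly the gene model Gm13502, so its counts are less certain.

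Acat2, the cytosolic thiolase of the first step, was lower in stimulated (−0.55 ± 0.11, edgeR adjusted p = 0.011) and in unstimulated cells (−0.48 ± 0.077, edgeR adjusted p = 0.000812), though 28.9% of its windows are shared, mostly with its close copy Acat3. Fdps, which joins isoprenoid units to farnesyl diphosphate, was the only DEG with PGE2. In unstimulated cells its raw counts were 31, 48, 47 and 50 untreated and 7, 28, 23 and 31 with PGE2, or 1.37, 1.60, 1.32 and 1.51 CPM and 0.246, 0.788, 0.634 and 0.789 CPM. All 4 treated replicates lay lower, with a log2 fold change of −1.18 ± 0.31 (edgeR adjusted p = 0.0134). In stimulated cells it stood at 1.35, 2.64, 1.90 and 3.00 CPM untreated and 1.81, 1.97, 2.17 and 2.73 CPM with PGE2, which overlapped (log2 fold change −0.019 ± 0.26, edgeR adjusted p = 0.97). Of its exon bases 26.7% also belong to the gene model Gm43738 on the same strand, so its low counts are uncertain. Without replicate 1 with PGE2 the change of Fdps in unstimulated cells was under 2-fold.

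The kinases and the decarboxylase between Hmgcs1 and Idi1 passed the unpaired test in neither state. Mvk, the mevalonate kinase, had log2 fold changes of 0.12 ± 0.19 and 0.15 ± 0.10 in stimulated and unstimulated cells. For Pmvk, the phosphomevalonate kinase, the values were −0.23 ± 0.13 and −0.13 ± 0.13, and for Mvd, the decarboxylase, −0.21 ± 0.13 and −0.15 ± 0.065. Within replicate numbers Pmvk was lower in stimulated cells (edgeR adjusted p = 0.0119) and Mvd in both (edgeR adjusted p = 0.0461 stimulated, 0.0475 unstimulated).

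In the sterol arm 7 of 11 genes were lower in stimulated cells and 6 in unstimulated cells, against 3.8% and 15.5% of all genes. None was higher, against 6.04% and 12.9%, and the median log2 fold changes were −0.41 and −0.68. Lss had the lowest adjusted p of the arm in stimulated cells. It stood at 42.6, 44.3, 44.8 and 43.6 CPM untreated and 23.5, 26.9, 24.3 and 25.9 CPM with PGE2, 57.4% of the untreated mean. Unstimulated cells held 24.7, 28.7, 27.1 and 29.2 CPM untreated and 15.0, 16.1, 19.0 and 17.5 CPM with PGE2. The replicates of stimulated untreated cells differed little from one another, and no treated replicate reached them. Its log2 fold change was −0.80 ± 0.069 in stimulated (edgeR adjusted p = 0.00019) and −0.68 ± 0.096 in unstimulated cells (edgeR adjusted p = 0.000369). The single NF-Y box of the Lss stretch above begins 62 bases before the start.

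Dhcr7, the reductase of the last step, had the lowest adjusted p of the arm in unstimulated cells. It stood there at 32.1, 30.0, 27.6 and 29.2 CPM untreated and 17.9, 14.9, 17.5 and 17.7 CPM with PGE2, a log2 fold change of −0.79 ± 0.079 (edgeR adjusted p = 3.88e-05). Stimulated cells held 21.7, 17.996, 22.2 and 23.7 CPM untreated and 9.68, 10.3, 14.9 and 17.1 CPM with PGE2. The treated replicates spread more there, and replicate 4 with PGE2 came close to untreated replicate 2, with a log2 fold change of −0.71 ± 0.18 (edgeR adjusted p = 0.0346). That call was lost in 6 of the 8 fits that each left out 1 library, with adjusted p up to 0.082, and held without replicate 1 or replicate 4 with PGE2, and it was lost with upper-quartile factors too (0.054).

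Msmo1, the methylsterol monooxygenase, stood at 59.4, 54.6, 47.6 and 51.2 CPM in stimulated untreated cells and 35.8, 33.1, 34.5 and 38.2 CPM with PGE2. Its unstimulated values were 27.6, 24.1, 23.7 and 25.3 CPM and 15.3, 13.5, 13.1 and 15.5 CPM. It fell without overlap in both states, by 1.503-fold in stimulated cells (log2 fold change −0.58 ± 0.079, edgeR adjusted p = 0.00199) and by 1.76-fold in unstimulated cells (−0.79 ± 0.079, edgeR adjusted p = 3.89e-05). Cyp51 fell from 162 ± 21.7 to 91.3 ± 13.2 CPM in stimulated cells (mean ± SD, n = 4, log2 fold change −0.82 ± 0.12, edgeR adjusted p = 0.00253). In unstimulated cells it fell from 72.5 ± 4.86 to 42.2 ± 4.56 CPM (−0.76 ± 0.078, edgeR adjusted p = 4.27e-05). Sqle, the squalene epoxidase that begins the oxygen-dependent part of the pathway, fell from 44.0 ± 4.22 to 24.5 ± 5.01 CPM in unstimulated cells (−0.82 ± 0.13, edgeR adjusted p = 0.000627). Its fall in stimulated cells (−0.41 ± 0.11) sat at the threshold (edgeR adjusted p = 0.0492) and was kept in only 1 of the 8 fits without a library, the one without replicate 1 with PGE2. It was also lost with RLE factors (edgeR adjusted p = 0.0513) and with limma on the FPKM values (0.0889 and 0.0864).

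The other sterol genes moved less or passed the unpaired test in a single state. Sc5d, a sterol desaturase, was lower in stimulated cells (−0.40 ± 0.065, edgeR adjusted p = 0.00453), and its unstimulated value was −0.19 ± 0.084 (edgeR adjusted p = 0.121, 0.00803 within replicate numbers). Fdft1, the squalene synthase, was lower in stimulated cells (−0.34 ± 0.079, edgeR adjusted p = 0.0248), a call lost without untreated replicate 1 or 3 or without replicate 2 or 3 with PGE2 (adjusted p up to 0.0759). Of its exon bases 18.3% lie antisense to Ctsb, a gene with a mean of 107.7 CPM, and its unstimulated value was −0.14 ± 0.06 (edgeR adjusted p = 0.102, 0.033 within numbers). Hsd17b7, a ketosteroid reductase, was lower in unstimulated cells (−0.76 ± 0.16, edgeR adjusted p = 0.00492). In stimulated cells its spread was wide, 25.9 to 43.9 CPM untreated and 13.5 to 31.8 CPM with PGE2. The log2 fold change of −0.62 ± 0.27 there did not pass the unpaired test (edgeR adjusted p = 0.177) but did within replicate numbers (0.000145). Nsdhl, a sterol dehydrogenase, Ebp and Tm7sf2 passed the unpaired test in neither state, with log2 fold changes between −0.17 and 0.041. Within replicate numbers Nsdhl (edgeR adjusted p = 0.0423) and Ebp (0.0232) were lower in unstimulated cells.

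**Figure D4:**
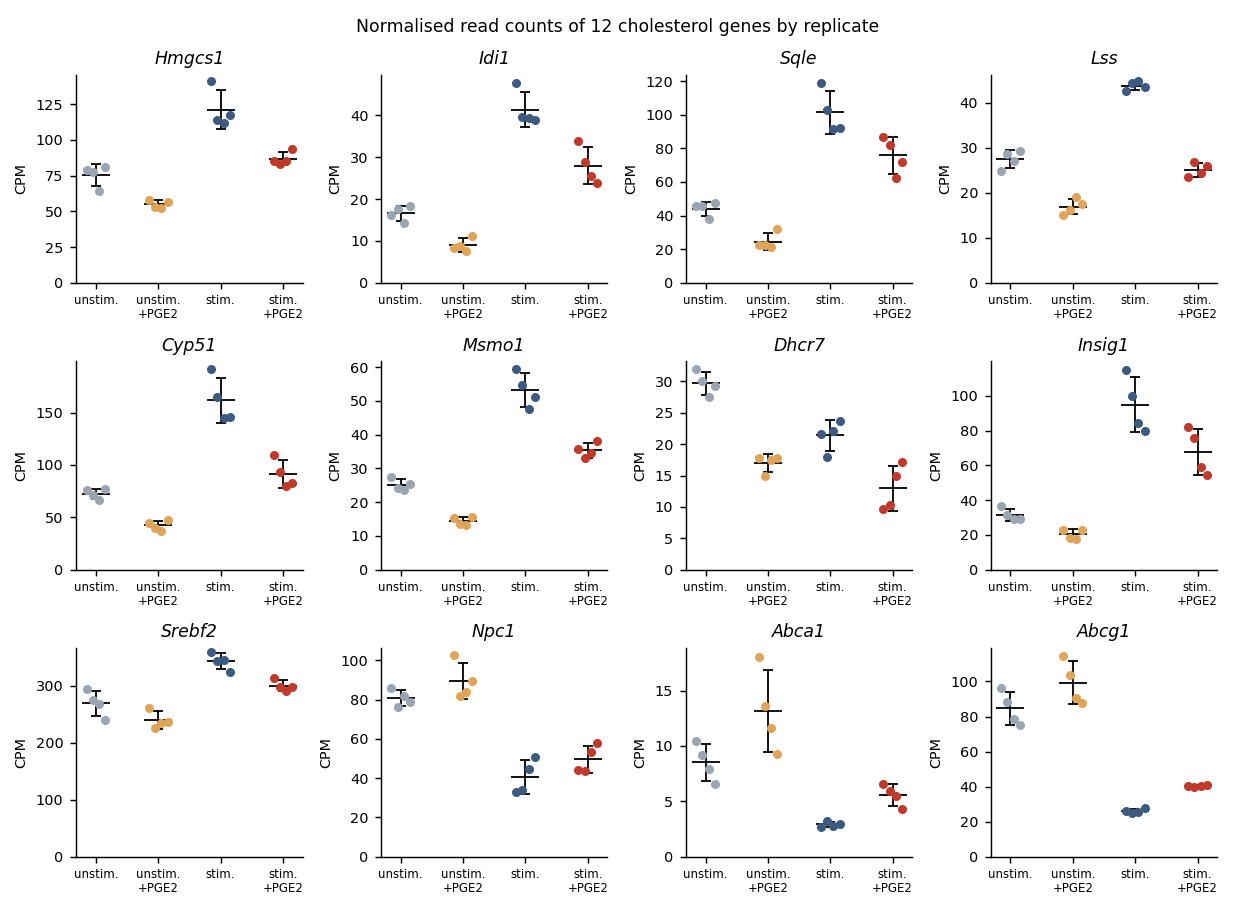
Normalised read counts (CPM, axes from 0) of 12 genes in every replicate of the 4 groups, with bars for the mean ± SD of 4 replicates and replicates 1 to 4 set from left to right. The synthesis genes are highest in stimulated untreated cells apart from Dhcr7, while Abca1, Abcg1 and Npc1 are highest in unstimulated cells with PGE2.

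Of the 5 genes that control SREBP, none passed the unpaired test in stimulated cells (3.8% of all genes were lower and 6.04% higher). In unstimulated cells 2 were lower and 2 higher, against 15.5% and 12.9% of all genes. The median log2 fold changes were −0.13 in stimulated and −0.15 in unstimulated cells. At an unadjusted p below 0.05 there were 2 in stimulated cells, Insig1 and Srebf2, where 27% of all genes had one, and both passed the threshold with DESeq2. Insig1, itself an SREBP target and a holder of the SRE core, stood at 115, 99.9, 84.5 and 79.96 CPM in stimulated untreated cells and 81.9, 75.8, 59.2 and 54.2 CPM with PGE2. Unstimulated cells held 36.7, 31.2, 29.2 and 28.97 CPM untreated and 22.7, 18.2, 17.5 and 22.9 CPM with PGE2. In each of the 4 replicate numbers the treated sample was lower in both states, but in stimulated cells the groups overlapped. It fell in unstimulated cells (log2 fold change −0.61 ± 0.10, edgeR adjusted p = 0.00118). In stimulated cells the value of −0.48 ± 0.15 did not pass (edgeR adjusted p = 0.0722). It passed in 4 of 9 other processings, among them the fit within replicate numbers (1.80e-05) and DESeq2 (0.0295). It also passed without replicate 1 with PGE2 (0.0355).

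Insig2, the INSIG gene that does not depend on SREBP, stood at 28.8, 27.7, 28.4 and 27.7 CPM in unstimulated untreated cells and 32.01, 31.7, 34.9 and 32.8 CPM with PGE2. Every treated replicate was higher, with a log2 fold change of 0.24 ± 0.063 (edgeR adjusted p = 0.0129), a call lost in the joint fit of all 16 samples (0.11). Stimulated cells held 24.2, 21.6, 25.8 and 26.1 CPM untreated and 23.6, 22.1, 27.7 and 32.2 CPM with PGE2, which overlapped (0.12 ± 0.12, edgeR adjusted p = 0.544). Srebf1 was likewise higher in unstimulated cells, at 168, 160.3, 168 and 151 CPM untreated and 193, 177, 184 and 181 CPM with PGE2. The groups did not overlap, with a log2 fold change of 0.20 ± 0.055 (edgeR adjusted p = 0.0167). In stimulated cells Srebf1 stood at 146, 153, 162 and 149 CPM and 155, 149, 166 and 166 CPM, and the fold change of 0.068 ± 0.066 did not pass (edgeR adjusted p = 0.529).

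Srebf2 stood at 359, 344, 345 and 324 CPM in stimulated untreated cells and 315, 298, 291 and 299 CPM with PGE2. Unstimulated cells held 295, 274, 267 and 241 CPM untreated and 262, 226, 234 and 237 CPM with PGE2. The treated replicates were all lower in stimulated cells and overlapped the untreated ones in unstimulated cells. Neither log2 fold change passed the unpaired test (−0.18 ± 0.06, edgeR adjusted p = 0.0804, and −0.15 ± 0.068, 0.13), while both passed within replicate numbers (0.00588 and 0.00837). With DESeq2 the call in stimulated cells passed too (0.0275), as did the one in unstimulated cells without untreated replicate 4 (0.039).

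Scap stood at 96.6, 96.1, 96.6 and 91.6 CPM in unstimulated untreated cells and 84.1, 78.6, 83.2 and 82.7 CPM with PGE2. Each treated replicate was lower, by a log2 fold change of −0.19 ± 0.049 (edgeR adjusted p = 0.0132). The call was lost without untreated replicate 2 (0.0669) and without replicate 2 with PGE2 (0.0826). In stimulated cells Scap stood at 135, 134, 133 and 116 CPM and 130.1, 122, 116 and 104 CPM, with a log2 fold change of −0.13 ± 0.083 (edgeR adjusted p = 0.329, 0.0315 within numbers).

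Of the 3 uptake and transport genes, Stard4 alone passed the unpaired test, in unstimulated cells, where 15.5% of all genes were lower. In stimulated cells Mylip alone had an unadjusted p below 0.05, as had 27% of all genes. None of the 3 passed there with DESeq2. Stard4, which ferries sterols between membranes, stood at 86.8, 90.2, 85.1 and 102 CPM in unstimulated untreated cells and 80.7, 74.4, 77.2 and 81.5 CPM with PGE2. The treated replicates were all below the untreated ones, by a small log2 fold change of −0.20 ± 0.066 (edgeR adjusted p = 0.0452). This call was lost in 7 of 9 other processings, DESeq2 among them (edgeR, limma and DESeq2 adjusted p from 0.0509 to 0.0712). Of the 8 fits without a library 5 lost it (adjusted p up to 0.166), and it was kept without untreated replicate 1 or 3 or without replicate 4 with PGE2. In stimulated cells Stard4 stood at 103, 102, 102 and 118 CPM and 89.2, 90.7, 91.5 and 108 CPM (−0.16 ± 0.082, edgeR adjusted p = 0.25, 0.00752 within numbers).

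Mylip, an LXR target, stood at 8.73, 8.70, 9.49 and 6.72 CPM in stimulated untreated cells and 12.2, 10.002, 10.6 and 9.995 CPM with PGE2. No treated replicate overlapped the untreated ones, yet the log2 fold change of 0.35 ± 0.13 did not pass the unpaired test (edgeR adjusted p = 0.111, 0.0125 within numbers). Its unstimulated values were 21.2, 18.7, 17.0 and 13.2 CPM and 25.7, 22.2, 16.1 and 15.0 CPM, which overlapped (0.19 ± 0.17, edgeR adjusted p = 0.462, 0.0369 within numbers). Npc1, which exports cholesterol from lysosomes, stood at 32.8, 33.9, 44.7 and 50.5 CPM in stimulated untreated cells and 44.0, 43.5, 53.2 and 57.7 CPM with PGE2. Unstimulated cells held 85.9, 76.4, 81.8 and 78.6 CPM and 103, 81.9, 84.0 and 89.4 CPM. The treated sample was higher in all 4 replicate numbers of both states. Its log2 fold changes of 0.30 ± 0.15 (edgeR adjusted p = 0.233) and 0.17 ± 0.068 (edgeR adjusted p = 0.0867) passed only within numbers (0.00124 and 0.00204).

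The 3 efflux and LXR genes were higher with PGE2 in stimulated cells, where 6.04% of all genes were higher. In unstimulated cells 2 of them were higher, against 12.9% of all genes. The median log2 fold changes of the 3 were 0.64 and 0.46. Abcg1, a transporter that passes cholesterol to lipoproteins, stood at 25.9, 24.6, 25.6 and 27.7 CPM in stimulated untreated cells and 40.3, 39.8, 40.3 and 40.6 CPM with PGE2. The spread within both groups was narrow against the 1.55-fold difference between them (log2 fold change 0.64 ± 0.064, edgeR adjusted p = 0.000377). Its unstimulated values were 96.3, 88.2, 78.8 and 75.2 CPM and 114, 104, 90.7 and 87.9 CPM. These groups overlapped although the treated sample was higher in each replicate number. The log2 fold change of 0.25 ± 0.091 did not pass the unpaired test (edgeR adjusted p = 0.0613). It passed in 5 of 9 other processings, among them the fit within numbers (1.55e-05) and DESeq2 (0.0446). It also passed without untreated replicate 1 (0.0283) and without replicate 4 with PGE2 (0.0322).

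Abca1, which loads cholesterol onto apolipoprotein A-I, rose from 2.90 ± 0.241 to 5.57 ± 0.977 CPM in stimulated cells (mean ± SD, n = 4), 1.92-fold (log2 fold change 0.95 ± 0.16, edgeR adjusted p = 0.00602). In unstimulated cells it rose from 8.52 ± 1.66 to 13.1 ± 3.73 CPM (0.64 ± 0.19, edgeR adjusted p = 0.0258), higher in all 4 numbers though the groups overlapped. That call was lost without untreated replicate 3 or 4 and without replicate 1 or 2 with PGE2 (adjusted p up to 0.0679), and with limma on the FPKM values (0.0729 for both pseudocounts). Nr1h2 stood at 95.0, 101, 107 and 89.1 CPM in stimulated untreated cells and 115, 117, 123 and 123 CPM with PGE2. Its unstimulated values were 103, 112, 113 and 98.9 CPM and 140.5, 149, 153 and 138 CPM. Both pairs of groups were separate, with log2 fold changes of 0.29 ± 0.071 (edgeR adjusted p = 0.0311) and 0.46 ± 0.067 (edgeR adjusted p = 0.000418). In stimulated cells the call held in 2 of the 8 fits without a library, those without untreated replicate 3 or without replicate 1 with PGE2, with adjusted p up to 0.095 in the others.

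Whether PGE2 acted differently in the 2 states was tested as an interaction over all 16 samples, the log2 fold change in stimulated minus that in unstimulated cells. No gene of the 29 passed (0.517% and 0.232% of 15096 genes passed with a positive and a negative interaction, and 0.232% as DEGs). At an unadjusted p below 0.05 there were 4, Fdps, Sqle, Ebp and Abcg1, where 9.37% of all genes had one, and DESeq2 called none of the 29 either. The interaction of Abcg1 was 0.40 ± 0.12 (SE, edgeR adjusted p = 0.194) and that of Sqle 0.42 ± 0.19 (edgeR adjusted p = 0.475). For Fdps it was 1.18 ± 0.40 (edgeR adjusted p = 0.271), on low counts. With the replicate number as a block it passed and was a DEG (0.0394), the only one of the 29 to do so, where 1.79% of all genes passed with a positive interaction. The numbers did not pair every sample across the 4 groups. The other 28 interactions lay between −0.20 (Sc5d) and 0.42 (Sqle). Genes that passed in 1 state only, such as Fdft1 or Insig2, were therefore not shown to differ between the states. For Fdps a difference passed only with the block, on low counts.

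With fresh beads Insig1 and some synthesis genes, such as Hsd17b7 and Idi1, rose. Other synthesis genes, such as Mvk and Ebp, fell, as did Abca1, Abcg1 and Npc1. Members of most roles moved in both directions. Without PGE2, 12 of the 29 genes rose and 14 fell with beads, where 31.7% and 34.8% of 14205 genes rose and fell, and 11 were DEGs (23.2%). With PGE2, 12 rose and 15 fell (32.5% and 31.7% of 14507 genes), and 10 were DEGs (22.1%). Most genes tested thus moved in these comparisons, so the counts say little of these 29 in particular. The DEGs that rose without PGE2 were Idi1, Sqle, Cyp51, Msmo1, Hsd17b7 and Insig1, and those that fell were Tm7sf2, Npc1, Mylip, Abca1 and Abcg1. With PGE2 Fdps was added, and Npc1 and Mylip changed less than 2-fold. Both PGE2 states gave the same direction for 24 genes that passed in each, 11 higher and 13 lower. The median log2 fold change of the 29 was −0.14 without and −0.26 with PGE2. The 2 stimulation comparisons share no sample with each other, but each shares its groups with the PGE2 comparisons above.

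In the mevalonate arm Idi1 had the lowest adjusted p. From the values given above it rose 2.49-fold without PGE2 (log2 fold change 1.30 ± 0.10, edgeR adjusted p = 3.05e-07) and 3.10-fold with it (1.65 ± 0.15, edgeR adjusted p = 6.07e-06). The stimulated replicates lay above all unstimulated ones in both cases. Hmgcs1 rose 1.60-fold and 1.57-fold. In contrast Mvk fell to 52.2% and 51.6% of the unstimulated mean (−0.96 ± 0.12 and −0.94 ± 0.16), and Pmvk (−0.35 and −0.41), Mvd (−0.51 and −0.53) and Acat2 (−0.23 and −0.26) also fell. The fall of Acat2 was lost with DESeq2 (adjusted p = 0.111 without and 0.0522 with PGE2) and, without PGE2, with RLE factors (0.0727), no filter (0.0568) and the joint fit (0.0601). Among the fits that leave out 1 library, it was kept without PGE2 only when unstimulated replicate 3 or stimulated replicate 1 or 4 was left out, and with PGE2 only for unstimulated replicate 3 or stimulated replicate 4. Fdps rose with PGE2 (1.79 ± 0.31, edgeR adjusted p = 0.000405) and had 0.58 ± 0.25 without it (edgeR adjusted p = 0.053, 0.0268 within numbers). Neighbouring steps of the same arm thus moved in opposite directions.

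In the sterol arm Hsd17b7 had the largest rise of the 29 genes, 4.36-fold without PGE2 (2.13 ± 0.18, edgeR adjusted p = 4.74e-07) and 4.83-fold with it (2.30 ± 0.29, edgeR adjusted p = 4.22e-05). Msmo1, of lowest adjusted p in the arm, rose 2.11-fold and 2.47-fold, from the replicate values given above, without overlap (edgeR adjusted p = 4.40e-07 and 1.29e-06). Sqle rose 2.30-fold and 3.09-fold, Cyp51 2.23-fold and 2.16-fold, and Lss 1.60-fold and 1.49-fold. Falling genes of the arm were Tm7sf2 (−1.09 and −1.09), Ebp (−0.46 and −0.26), Nsdhl (−0.35 and −0.26) and Fdft1 (−0.25 and −0.41), each past the test in both. Of the exon bases of Tm7sf2, 12.1% also belong to Vps51 on the same strand. Dhcr7 fell without PGE2 (−0.49 ± 0.09, edgeR adjusted p = 0.000387) and had −0.37 ± 0.17 with it (edgeR adjusted p = 0.0677), and Sc5d rose without PGE2 (0.24 ± 0.08, edgeR adjusted p = 0.0176) and had 0.067 ± 0.084 with it (edgeR adjusted p = 0.497).

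**Figure D5:**
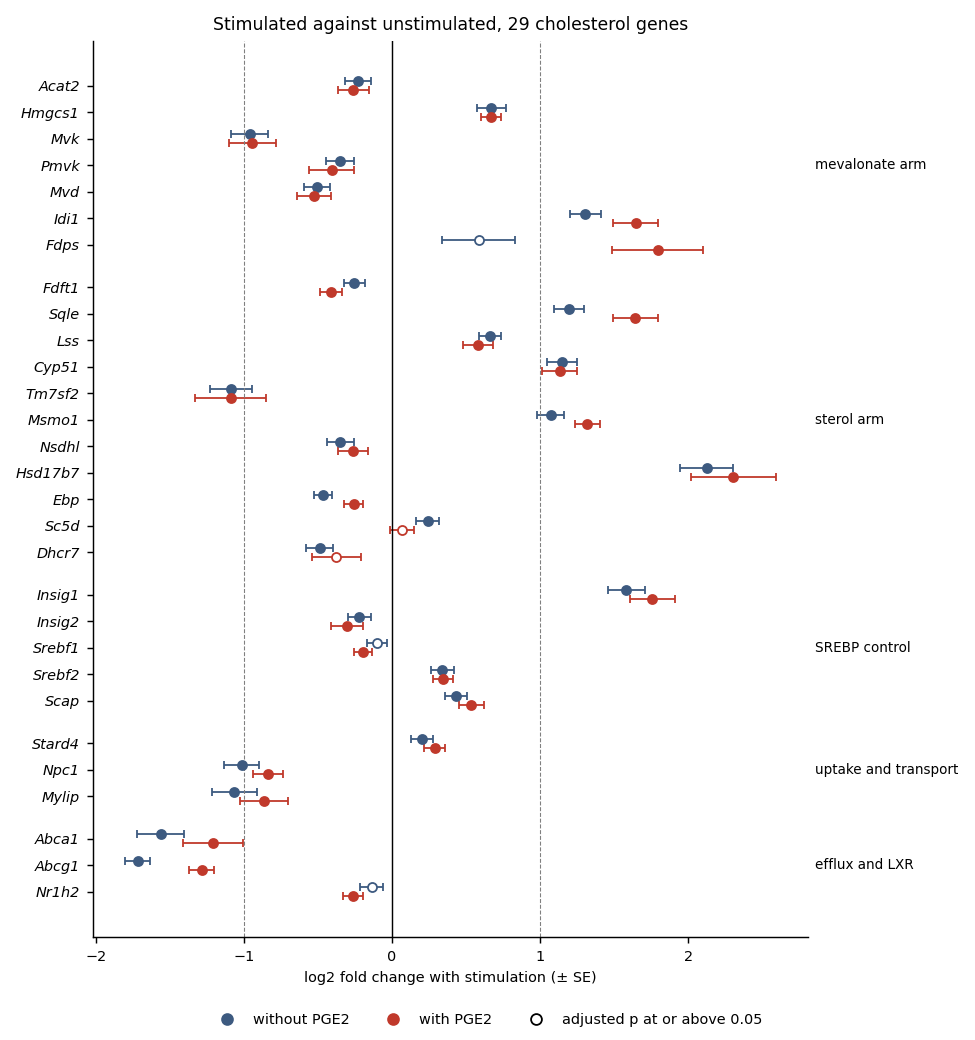
Log2 fold change with stimulation (± SE) of each gene without and with PGE2, grouped by role. Filled points passed the adjusted p of 0.05, and dashed lines mark a 2-fold change. Hsd17b7 lies farthest right (2.13 and 2.30) and Abcg1 farthest left (−1.72 and −1.28).

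Insig1 led the control genes and rose 3.01-fold without PGE2 (1.58 ± 0.12, edgeR adjusted p = 2.62e-07) and 3.34-fold with it (1.76 ± 0.15, edgeR adjusted p = 4.06e-06). Srebf2 (0.34 and 0.34) and Scap (0.43 and 0.54) rose in both cases. Insig2 fell slightly in both (−0.22 and −0.30), and Srebf1 fell with PGE2 (−0.19 ± 0.062, edgeR adjusted p = 0.0173) and had −0.10 ± 0.067 without it (edgeR adjusted p = 0.196). The transport genes split. Stard4 rose (0.20 and 0.29), whereas Npc1, of lowest adjusted p here, fell to 50.2% and 55.4% of the unstimulated mean (−1.02 ± 0.12 and −0.84 ± 0.10, edgeR adjusted p = 6.63e-06 and 3.45e-05). Mylip fell too (−1.06 and −0.86).

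Abcg1 fell 3.26-fold without PGE2 (−1.72 ± 0.084, edgeR adjusted p = 1.45e-08) and 2.46-fold with it (−1.28 ± 0.083, edgeR adjusted p = 1.29e-06), and Abca1 fell 2.94-fold and 2.36-fold. Stimulated cells with PGE2 still held less Abcg1 than every unstimulated untreated replicate, while for Abca1 these groups overlapped. Nr1h2 fell with PGE2 (−0.26 ± 0.065, edgeR adjusted p = 0.0044) and had −0.14 ± 0.079 without it (edgeR adjusted p = 0.144, 0.0291 within numbers). Upper-quartile scaling in place of TMM moved the median over all genes from −0.031 to −0.13 without PGE2 and from 0.0022 to −0.13 with it. Under that scaling the rise of Stard4 was lost in both cases (edgeR adjusted p = 0.255 and 0.11) and that of Sc5d without PGE2 (0.109). Without PGE2 the call of Stard4 was also lost when unstimulated replicate 1, 2 or 3 or stimulated replicate 4 was left out (edgeR adjusted p up to 0.107), that of Sc5d for unstimulated replicate 2 or 3 or stimulated replicate 2 (0.0644), and that of Insig2 for unstimulated replicate 3 or stimulated replicate 2 (0.0918). Other processings that lost a call without PGE2 were no filter for Stard4 (edgeR adjusted p = 0.0819), and RLE factors (0.0536), the joint fit (0.0755) and DESeq2 (0.0769) for Insig2. With PGE2 the calls of Pmvk (0.0977), Insig2 (0.0801) and Nsdhl (0.11) were lost when unstimulated replicate 3 or 4 or stimulated replicate 1 or 2 was left out, and that of Nsdhl also for unstimulated replicate 2. Dhcr7 with PGE2 passed without stimulated replicate 3 (0.0471) or 4 (0.0111), and Fdps without PGE2 passed without stimulated replicate 1 (0.00786). Of 9 other processings, Dhcr7 with PGE2 passed in 4, and without PGE2 Fdps passed in 4, Nr1h2 in 2 and Srebf1 in 1.

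Of 37 other genes of cholesterol handling, 33 were tested with PGE2 in stimulated cells, where 4 rose (Sult2b1, Npc2, Lipa and Osbpl9) and 2 fell (Rxra and Lrp8). In unstimulated cells 7 of 34 rose and 6 fell. Of all genes tested, 6.04% rose and 3.8% fell in stimulated cells, and 12.9% and 15.5% in unstimulated cells. The median log2 fold changes over those tested were −0.018 and −0.021. Rxra, the receptor that pairs with LXR, was a DEG in stimulated cells, at 50.8 ± 7.41 CPM untreated and 22.5 ± 5.35 CPM with PGE2 (log2 fold change −1.17 ± 0.17, edgeR adjusted p = 0.00288), and fell in unstimulated cells (−0.78 ± 0.097, edgeR adjusted p = 0.00016). Sult2b1, a sterol sulfotransferase, was a DEG in unstimulated cells, at 3.46 ± 0.599 CPM untreated and 8.88 ± 0.788 CPM with PGE2 (1.37 ± 0.15, edgeR adjusted p = 5.64e-05), and rose in stimulated cells (0.78 ± 0.17, edgeR adjusted p = 0.018). Lipa, the lysosomal acid lipase that frees cholesterol from its esters, rose in both states (0.72 and 0.50), as did Npc2, which hands lysosomal cholesterol to Npc1 (0.46 and 0.32). Tmem97, a sterol-binding membrane protein, fell in unstimulated cells (−0.90 ± 0.13, edgeR adjusted p = 0.000353).

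Scarb1, which takes up sterol from high-density lipoprotein, was the only one of the 34 to pass the interaction test (0.68 ± 0.15, edgeR adjusted p = 0.044). Its log2 fold change with PGE2 was −0.80 ± 0.13 in unstimulated cells (edgeR adjusted p = 0.00084) and −0.13 ± 0.072 in stimulated cells (edgeR adjusted p = 0.265). Of 10 genes that use isoprenoids for ubiquinone, dolichol or prenylated proteins, 3 fell with PGE2 in stimulated cells (Pdss1, Coq2 and Rabggtb) and 4 in unstimulated cells (those and Nus1), with none higher and median log2 fold changes of −0.18 and −0.19. Of all genes tested, 3.8% fell with PGE2 in stimulated and 15.5% in unstimulated cells. Stimulation raised 7 of these 10 with and without PGE2. Of the other cholesterol genes it raised 11 and lowered 11 of 33 without PGE2, and raised 11 and lowered 12 of 34 with it. Of all genes tested, 31.7% rose and 34.8% fell without PGE2, and 32.5% and 31.7% with it. The counts for the other cholesterol genes thus say little of that list. The lowest adjusted p without PGE2 belonged to Gramd1b, a sterol transporter (log2 fold change 1.38), Abca7, a lipid transporter (−1.52), and Tmem97 (1.80). With PGE2 it belonged to Gramd1b (1.38), Tmem97 (2.37) and, of the isoprenoid genes, Rabggtb (1.05). Of the 8 activation genes, 1 was higher and 1 lower with PGE2 in stimulated cells, against 6.04% and 3.8% of all genes. In unstimulated cells 1 was higher and 5 lower, against 12.9% and 15.5%. The part of activation state in the differences above was not tested.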

How the data were processed

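Per the labels and the study's methods, poly(A) RNA of all 16 samples was sequenced as paired ends, and the authors aligned the reads with HISAT2 2.0.5 to GRCm38 (mm10) and made the deposited read counts per gene with featureCounts 1.5.0-p3. Strand use in counting and the annotation release are not given in the sources used here. The deposited FPKM values were scaled by the authors to gene length and library total, and served here only for levels between genes and as an alternative. Of 54532 genes, 28205 had a count. The 29 genes and the other lists were chosen with earlier results of these data known. Some genes of the pathway are not reported here.

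Counts were tested with edgeR 4.0.16 in R 4.3.3, after filterByExpr with a minimum count of 10 and TMM scaling, by quasi-likelihood tests within the 2 groups compared, or over all 16 samples for the interaction. The p-values were adjusted over all genes tested, and a gene was called at an adjusted p below 0.05. The scripts were tested on simulated data. Per-replicate values are printed for genes that were DEGs with PGE2, for the SREBP control genes and for the gene of lowest adjusted p of each role. The others are given by fold change or range. Lists of 5 or fewer genes outside this rule were named after their values were seen. Depth differed by less than 2-fold between libraries, and low genes such as Fdps rest on few reads. Same-numbered samples deviated together across genes, with correlations of their deviations from 0.190 to 0.423 for PGE2 in stimulated cells, 0.137 to 0.444 in unstimulated cells and 0.112 to 0.359 for stimulation without PGE2, but down to 0.0439 for stimulation with PGE2. Different numbers also went together. In stimulated cells untreated replicate 1 with PGE2 replicate 2 (0.247) and untreated 4 with PGE2 3 (0.250) exceeded same-numbered pair 2 (0.190). Numbers 1 and 2 deviated against 3 and 4 there (−0.385 to −0.184). In both stimulated groups replicates 1 and 2 lay above 3 and 4 for 20.3% of genes and below for 20.4%. The pairing by number is only a hint from the data, as no source says what a number marks. Alternatives were other scaling factors (RLE, upper quartile), DESeq2 1.42.0, no filter, a stricter filter, limma 3.58.1 on log2(FPKM + 1) and log2(FPKM + 0.1), the replicate number as a block, a joint fit of the 4 groups, and the omission of each library. Gene coordinates and shared exon bases were checked against GENCODE M21, which gives 26 of the 29 genes the same coordinates, and promoter sequence came from RefSeq (GRCm38.p6).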

Additional observations from a re-analysis of the deposited data

Results flagged for a closer look

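Among 116 sets of 4 replicates, 1 for each of the 29 genes in each group, 10 held a sample whose gap to its nearest neighbour exceeded Dixon's 95% critical value as a share of the range, where chance gives about 5%. In stimulated untreated cells these were replicate 1 for Idi1 (47.7 CPM, next 39.6 CPM) and replicate 4 for Tm7sf2 (4.60, next 3.23 CPM), Scap (116, next 133 CPM, the low side) and Stard4 (118, next 103 CPM). Replicate 4 of stimulated cells with PGE2 stood high for Hmgcs1 (93.2, next 84.9 CPM) and Stard4 (108, next 91.5 CPM). In unstimulated untreated cells replicate 4 stood low for Scap (91.6, next 96.1 CPM). In unstimulated cells with PGE2 replicate 4 stood high for Sqle (31.97, next 22.5 CPM), and replicate 2 stood low for Nsdhl (14.3, next 14.8 CPM) and Dhcr7 (14.9, next 17.5 CPM). Of the 10 samples, 7 carried the replicate number 4. The calls with PGE2 of Hmgcs1 in stimulated cells and of Sqle, Dhcr7 and Scap in unstimulated cells held without these samples, and that of Idi1 in stimulated cells was lost without replicate 1 (edgeR adjusted p = 0.0505).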

How the results depend on the processing

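With the replicate number as a block, 22 genes passed for PGE2 in stimulated and 26 in unstimulated cells, against 13 and 17 unpaired, and 1 (Fdps, also a DEG, 1) for the interaction, against 0. Over all genes the block called 2662 higher and 2882 lower with PGE2 in stimulated cells, against 841 and 529, and 3428 higher and 3510 lower in unstimulated cells, against 1869 and 2253. For stimulation with PGE2, where the numbers did not pair every sample, the block added Dhcr7 (edgeR adjusted p = 0.0274). Fdps, the 1 DEG of PGE2 in unstimulated cells, was no longer one with at least 10 counts in every sample, which leaves it untested (0 DEGs), or with limma on log2(FPKM + 1) (0) or log2(FPKM + 0.1) (0). DEGs with stimulation numbered 6 without and 6 with PGE2 under limma on log2(FPKM + 1), against 11 and 10, as a pseudocount near the level of low genes shrinks their fold changes. Leaving out each library in turn gave 8 to 14 genes for PGE2 in stimulated cells with 0 to 1 DEGs, and 14 to 19 in unstimulated cells with 0 to 1 DEGs. It gave 23 to 27 genes and 9 to 12 DEGs for stimulation without PGE2, 23 to 28 and 9 to 11 with PGE2, and 0 for the interaction. No called value changed sign under any of these alternatives. Among the 2665 values from these alternatives, of called and uncalled genes together, 44 changed sign. All 44 belonged to uncalled genes, and none was past the threshold. Depth limits Fdps most, with 7 to 50 reads in unstimulated libraries.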
